A study of Rattus norvegicus with 11 samples.

Results

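Hox genes of the A, B, C and D clusters were described in rat adrenal tissue. Members were all genes with the symbol Hoxa, Hoxb, Hoxc or Hoxd and a number, and with a probe set that the platform annotation assigns to that gene alone. This gave 22 of 14506 named genes, each with a single probe set: 5 of the 11 HoxA genes in the RefSeq gene table, 7 of 10 HoxB, 4 of 9 HoxC and 6 of 9 HoxD. Expression was measured on 11 Affymetrix arrays of 29214 probe sets, 1 per biological replicate, as log2 values after robust multi-array averaging (RMA) by the authors. Lesions (n = 7) came from the adrenals of rats heterozygous for a p27Kip1 mutation (labelled Cdknb1, the gene Cdkn1b), 3 aged 21 to 23 months and 4 aged 13 months, 4 males and 3 females. Normal glands (n = 4) came from wild-type rats, 2 aged 24 months and 2 aged 12 months, with both sexes at each age. All animals were Sprague–Dawley white eye/Wistar–Kyoto, kept specific-pathogen-free and untreated. The sources used here do not say how much normal gland a lesion sample held.

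Hox proteins are homeodomain transcription factors that give cells of the embryo their position along the body axis. The genes lie in clusters in which the order on the chromosome matches the order of expression from head to tail: paralogue group 1, at the 3′ end, acts most anteriorly, and group 13, at the 5′ end, most posteriorly. Many adult tissues keep part of this positional code. The adrenal joins cells of different origin, a steroid-producing cortex from mesoderm beside the developing kidney and gonad, and a catecholamine-producing medulla of chromaffin cells from the trunk neural crest. Hox proteins bind DNA together with cofactors of the Pbx, Meis and Pknox families.

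Array medians lay between 4.91 and 5.01, and lesion replicate 1 stood apart from the other arrays, with a median correlation of 0.971 with them across probe sets against 0.980 to 0.987 for the rest. Its 8 measured cortex markers averaged 9.08, against 9.83 to 10.74 on the other 10 arrays, and its 8 chromaffin markers averaged 10.87, against 9.41 to 10.34. Lesion replicate 4 lay at the opposite end of both lists, at 10.74 for cortex and 9.41 for chromaffin. All 8 cortex and all 8 chromaffin markers were above background on every array, as the tissue label has it. Of 11 kidney markers, 5 were above background on no array, and the list mean was 3.94 to 4.12 in lesions and 3.91 to 4.14 in normal glands. The mutated gene itself spanned 7.42 to 8.69 in lesions and 7.59 to 7.92 in normal glands; no source used here places its probes with respect to the mutation, so this checks no label. In whole tissue, fewer cells of a type and less RNA per cell cannot be told apart.

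In the adrenal, HoxB, the cluster with the largest number of measured genes, had 5 of 7 above background on all arrays. In HoxA these were 3 of 5, in HoxC 1 of 4 and in HoxD 2 of 6. The pattern held no measured gene beyond paralogue group 9. Background was set on each array at the 95th percentile of 1128 probe sets of olfactory receptor genes, which are taken to have little expression in the adrenal (log2 4.10 to 4.38). Probe sets differ in affinity, so levels were set against this background and not ranked between genes. By this measure 11 of 22 genes were above background on all 11 arrays, 6 on some and 5 on none. Among all 14506 named genes, 65.5% were above it on all arrays and 22.5% on none. The 5 genes at background were Hoxa11, Hoxb13, Hoxc12, Hoxd10 and Hoxd13, all from paralogue groups 9 to 13, of whose 16 genes 8 were measured. Each of the 5 genes of groups 1 to 3 and of the 9 of groups 4 to 8 exceeded background on some array, but Hoxc5 did so in lesion replicate 1 alone, and without that array 6 genes were on none. The posterior genes above background on all arrays were Hoxb9 and Hoxd9, both of group 9. No measured gene of groups 10 to 13 was above it on any array. Hoxd10 was the only gene of group 10 measured, and Hoxa10 and Hoxc10 were not. The measured genes therefore do not settle where the pattern ends. With the 99th percentile as background, 5 genes remained above it on all arrays, Hoxb3, Hoxb4, Hoxb7, Hoxb8 and Hoxb9, and with the array median 6, the same 5 and Hoxa4. At either of these thresholds 9 genes were above it on no array, the 5 posterior ones and Hoxa2, Hoxb2, Hoxc5 and Hoxd3, so the genes at background were then not posterior alone.

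**Figure D1:**
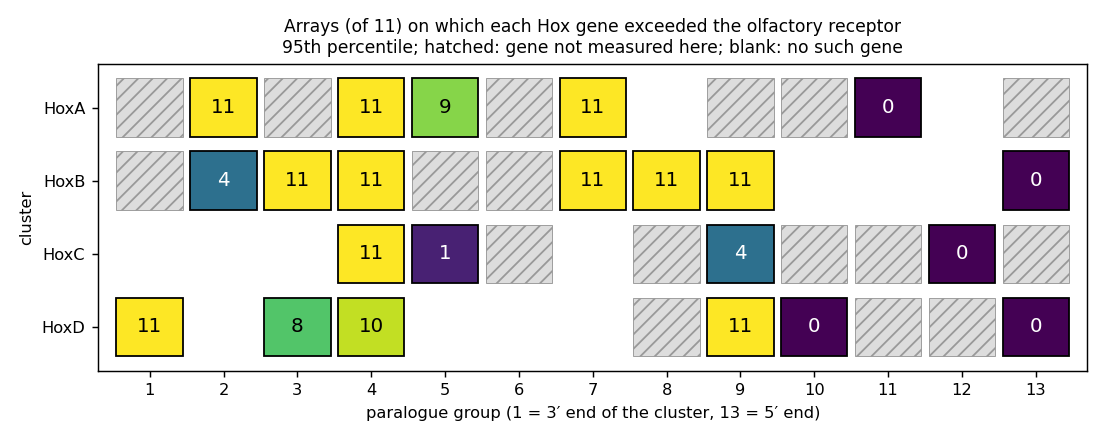
Hox genes by cluster (rows) and paralogue group (columns), with the number of arrays of 11 on which the gene exceeded the 95th percentile of olfactory receptor probe sets. Hatched genes were not measured here. The 5 genes with 0 arrays all lie in groups 10 to 13.

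In HoxB the genes above background on all arrays were Hoxb3, Hoxb4, Hoxb7, Hoxb8 and Hoxb9. Hoxb1, Hoxb5 and Hoxb6 were not measured here, so the stretch between Hoxb4 and Hoxb7 is not known. Hoxb3, a hindbrain and pharyngeal patterning gene, stood at 6.38 ± 0.22 in normal glands (SD, n = 4) and 6.51 ± 0.34 in lesions (SD, n = 7). Hoxb4, known for its effect on blood stem cells, stood at 6.62 ± 0.18 and 6.62 ± 0.15, and its range of 0.47 over the 11 arrays was the smallest of these 5 genes. Hoxb7 stood at 6.64 ± 0.10 in normal glands and 6.39 ± 0.33 in lesions, and Hoxb8, a trunk gene also active in myeloid progenitors, at 5.81 ± 0.23 and 5.72 ± 0.27. Hoxb9, which patterns thoracic ribs, was the most variable of the 5, with a range of 2.15 over the 11 arrays. The range of its neighbour Hoxb8 was 0.83. The most 3′ HoxB gene measured, Hoxb2, a hindbrain gene, was above background on 4 arrays. The most 5′, Hoxb13, a gene of the tail bud and prostate, was above it on none (3.02 to 3.70).

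In HoxA, Hoxa2 (neural crest of the second pharyngeal arch), Hoxa4 (cervical vertebrae) and Hoxa7 (trunk vertebrae) were above background on all 11 arrays, and Hoxa5, needed for the lung and neck, on 9. Hoxa11, which acts in kidney and limb, was on none (3.57 to 4.02). In HoxD, Hoxd1 and Hoxd9 were above background on all arrays, Hoxd4 on 10 and Hoxd3 on 8. Hoxd10 and Hoxd13, genes of the lumbar spinal cord and the digits, were above it on none. In HoxC, Hoxc4 was above background on all arrays, Hoxc9 on 4, Hoxc5 on 1 and Hoxc12 on none, while 5 of its 9 genes, Hoxc6 and Hoxc8 among them, were not measured here.

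**Figure D2:**
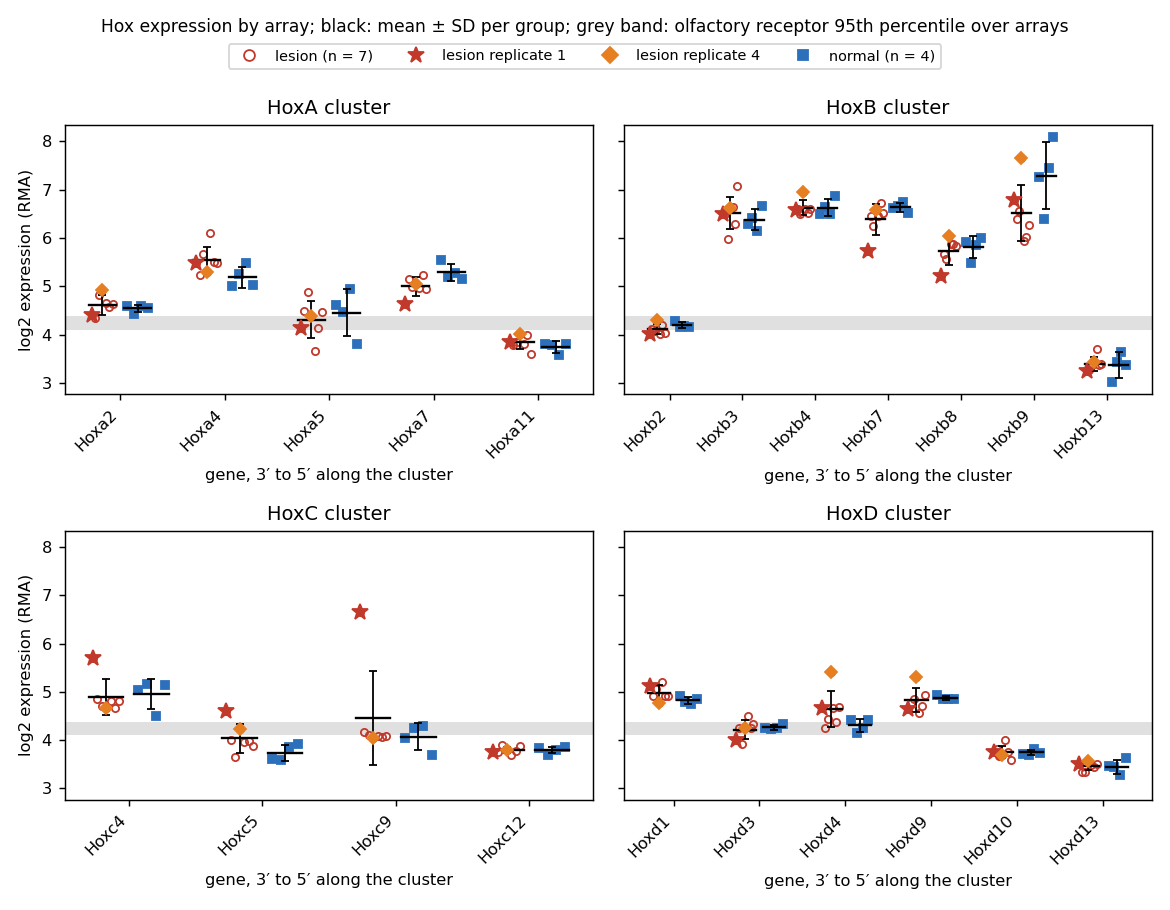
Log2 expression of each Hox gene on every array (lesions, open circles; normal glands, squares), by cluster in 3′ to 5′ order, with mean ± SD per group and background as a grey band. Lesion replicate 1 (star) is the single array with a high Hoxc9 level, at 6.65, and lesion replicate 4 (diamond) has the highest Hoxd4, at 5.40.

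Lesions against normal glands is the comparison the study set up, and no Hox gene was called in it. With limma and Benjamini-Hochberg adjustment over all probe sets, 0 of 22 passed an adjusted p under 0.05 (lowest 0.564), where 0.065% of all probe sets did. At an unadjusted p under 0.05 there were 3 of 22, against 7.71% of all probe sets. Hoxa4 was the 1 on the higher side in lesions (3.79% of all probe sets) and Hoxa7 and Hoxb9 the 2 on the lower side (3.92%). No gene had all lesions above or all below the normal glands, where 0.479% and 0.695% of probe sets did. The median difference of the 22 genes was 0.00361, that of all probe sets 0.00645. By cluster the medians were 0.08 for HoxA, -0.09 for HoxB, 0.15 for HoxC and 0.00798 for HoxD.

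Among the 3 lowest differences, Hoxb9 stood at 7.26, 6.39, 7.44 and 8.08 in normal glands and at 5.93 to 7.66 in lesions, with a median of 6.39. Normal replicate 2 lay among the lesions and lesion replicate 4 among the normal glands. The difference was -0.78 (95% CI -1.53 to -0.02, adjusted p = 0.630), and leaving out 1 array gave -1.08 (without normal replicate 2) to -0.51 (without normal replicate 4). It came to -0.24 among animals of 21 months or more and -1.29 among those of 13 months or less, neither called. Hoxa7 stood at 5.55, 5.19, 5.28 and 5.15 in normal glands and at 4.64 to 5.24 in lesions, with a median of 4.98. The groups overlapped through lesion replicate 6 alone, and the difference was -0.30 (95% CI -0.55 to -0.04, adjusted p = 0.564). Hoxb7 stood at 6.62, 6.67, 6.74 and 6.51 in normal glands and 5.73 to 6.73 in lesions, with a median of 6.45. Its difference of -0.25 (95% CI -0.60 to 0.09) was -0.14 without lesion replicate 1.

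Among the 3 highest differences, Hoxa4 stood at 5.01, 5.25, 5.47 and 5.02 in normal glands and 5.24 to 6.10 in lesions, with a median of 5.47. Lesion replicate 5 was the highest array, and the difference was 0.35 (95% CI 0.01 to 0.69, adjusted p = 0.630). Hoxd4, a cervical patterning gene, stood at 4.41, 4.15, 4.26 and 4.41 in normal glands and 4.25 to 5.40 in lesions, with a median of 4.67. Its difference of 0.33 (95% CI -0.06 to 0.73) was 0.21 without lesion replicate 4. In normal replicate 2 Hoxd4 was below background (4.15 against 4.23). For Hoxc9 the difference of 0.39 (95% CI -0.57 to 1.36) was 0.03 without lesion replicate 1, which alone carried it. The other 16 genes lay between -0.15 for Hoxa5 and 0.30 for Hoxc5.

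**Figure D3:**
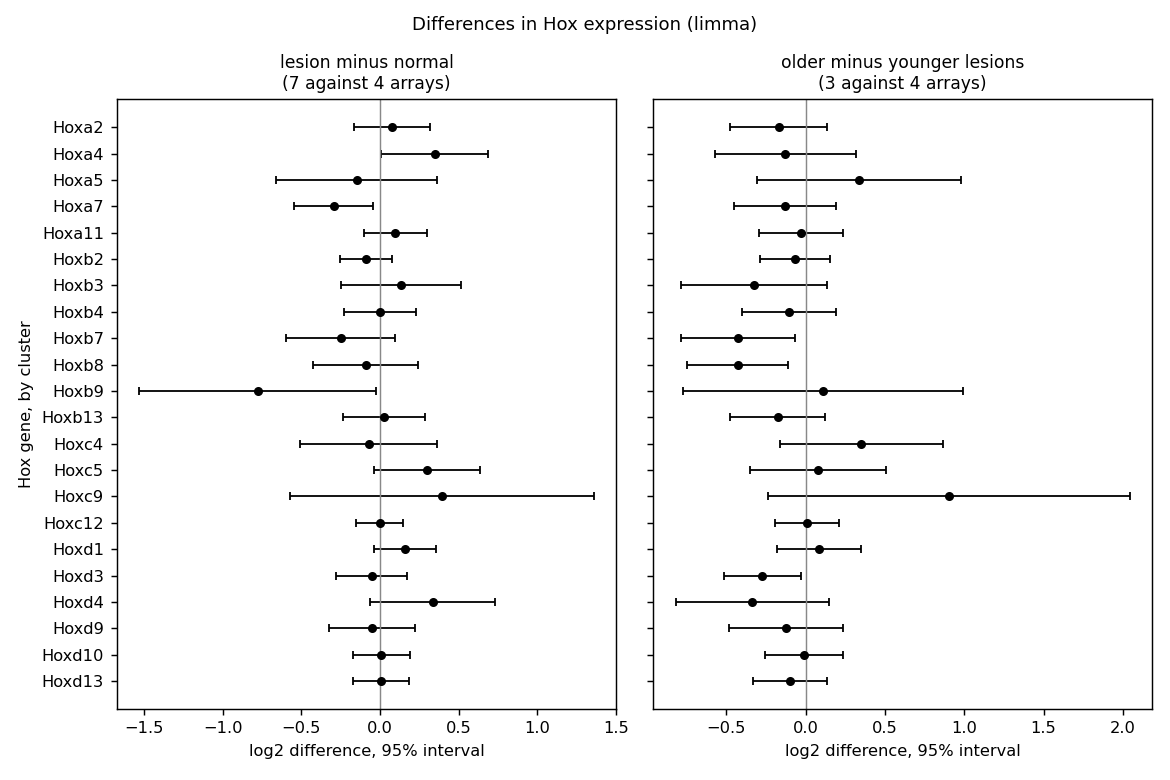
Log2 differences with 95% intervals from limma for the 22 Hox genes, lesions minus normal glands (left) and older minus younger lesions (right). The widest intervals are those of Hoxc9 and Hoxb9.

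Lesion replicate 1, from a female of 23 months, had a Hoxc9 level approached on no other array and the highest Hoxc4 and Hoxc5. Hoxc9, which sets thoracic identity in spinal motor neurons, stood at 6.65 there. In the other lesions it stood at 4.18, 4.11, 4.05, 4.09, 4.07 and 4.08, and in the normal glands at 4.05, 4.24, 4.29 and 3.68. Lesion replicate 1 was thus 5.12-fold above the next array, and in 36 of 29214 probe sets (0.123%) it exceeded the next array by more. Hoxc4 stood at 5.70 in lesion replicate 1 and at 4.50 to 5.17 on the other 10 arrays, and Hoxc5 at 4.60 against 3.58 to 4.22. Hoxc12, the most 5′ HoxC gene measured, stood at 3.75 there, within its range on the other arrays. Hoxc10, Hoxc11 and Hoxc13 were not measured. In the same array Hoxb7 (5.73 against 6.25 to 6.74), Hoxb8 (5.21 against 5.48 to 6.05) and Hoxa7 (4.64 against 4.95 to 5.55) were the lowest of all. Hoxb2 was lowest too, by 0.002. So the array was the highest for 3 of 22 genes, all in HoxC, and the lowest for 4, where it was the highest for 13.2% and the lowest for 16.5% of all probe sets. Hoxb3, Hoxb4 and Hoxb9 lay within the range of the other arrays.

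Beside these values, 7 of the 8 cortex markers were lowest and 4 of the 8 chromaffin markers highest in lesion replicate 1, where 1 chromaffin marker, Chga, was lowest (11.24 against 11.54 to 12.16). Of the 9 adipocyte markers 4 were lowest there, and of the 8 endothelial markers 3 were highest and 1 lowest. The 11 capsule and fibroblast markers averaged 5.82, against 5.74 to 5.92 on the other arrays, and the 11 blood and immune markers 6.27, against 5.52 to 6.28. In each of these lists 1 marker was highest and 2 were lowest there. The 11 kidney markers averaged 4.02, inside their range of 3.91 to 4.14 elsewhere. The Schwann and sustentacular list averaged 5.24, against 5.20 to 5.54, and the muscle list 5.17, against 5.06 to 5.29. Within the Schwann and sustentacular list Mbp was highest there (8.467 against at most 7.115) and S100b lowest (5.446 against at least 6.579). In the muscle list 1 marker was highest and 2 were lowest. The part of cell composition in the HoxC levels of this array was not tested.

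Lesion replicate 4, from a female of 13 months, was the highest array for 7 of 22 genes and the lowest for 0, where 14.5% and 11.2% of all probe sets had it highest and lowest. The 7 genes were Hoxa2, Hoxa11, Hoxb2, Hoxb4, Hoxb8, Hoxd4 and Hoxd9, of which Hoxa11 was below background on every array. Hoxd4 stood at 5.40 there and at 4.15 to 4.70 elsewhere, which was 1.64-fold above the next array, and 75 of 29214 probe sets had a larger gap. Hoxd9 stood at 5.31 against 4.57 to 4.94. For the other 5 genes the gap to the next array was at most 0.11. In this array 7 of the 8 chromaffin markers were lowest, 2 of the 8 cortex and 3 of the 9 adipocyte markers highest, and their part in the Hox values was not tested.

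**Figure D4:**
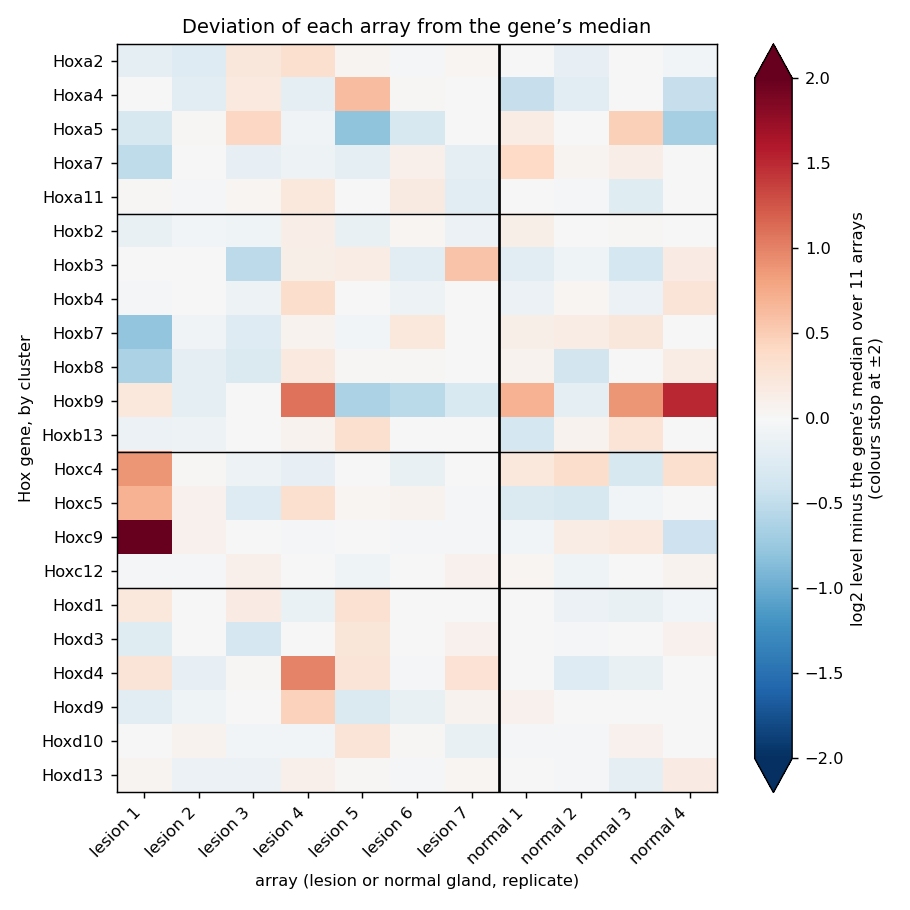
Log2 level of each Hox gene (rows, by cluster) on each array (columns) minus the gene's median over the 11 arrays, with colours ending at 2 either way. Lesion replicate 1 is high in Hoxc4, Hoxc5 and Hoxc9 and low in Hoxa7, Hoxb7 and Hoxb8, and Hoxb9 varies across both groups.

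Promoter sequence was available in the RefSeq table (assembly GRCr8) for 11 of the 22 genes, among them Hoxa4, Hoxc4 and Hoxd4 of paralogue group 4. Hoxc4 and Hoxd4 each hold 1 copy of a half-site of retinoic acid receptors, and Hoxa4 holds none. For that reason the 250 bases before the annotated starts of Hoxc4 and Hoxd4 are shown. Any part of the half-site in the levels of these genes was not tested. Capitals mark that half-site, AGGTCA, which in both reads as its reverse complement.
Hoxc4, chr7:136048809-136049058, plus strand: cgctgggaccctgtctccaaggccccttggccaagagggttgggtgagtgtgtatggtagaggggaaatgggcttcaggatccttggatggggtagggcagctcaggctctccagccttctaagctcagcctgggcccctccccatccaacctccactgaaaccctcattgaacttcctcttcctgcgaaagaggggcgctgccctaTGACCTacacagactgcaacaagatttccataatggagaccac
Hoxd4, chr3:80021636-80021885, plus strand: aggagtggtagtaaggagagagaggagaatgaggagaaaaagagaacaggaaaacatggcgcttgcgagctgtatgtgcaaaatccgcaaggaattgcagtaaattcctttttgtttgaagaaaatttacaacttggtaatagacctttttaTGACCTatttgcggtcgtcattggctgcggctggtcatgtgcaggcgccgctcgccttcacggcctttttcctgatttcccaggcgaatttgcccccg
Of 33465 promoter windows of this length, 14.1% held AGGTCA on either strand, and 3 of the 11 Hox windows did. The other was that of Hoxd10, a gene below background on every array. The PBX-HOX motif TGATNNAT was in 7.96% of all windows and in 1 Hox window, that of Hoxa2, where it overlapped no AGGTCA. GC content was 57.2% for Hoxc4 and 47.2% for Hoxd4, with a range of 45.2% to 74.8% over the 11 Hox windows and a median of 51.2% over all. These matches are descriptions of the letters, not sites of binding.

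Between older and younger lesions no Hox gene was called (0 of 22, lowest limma adjusted p = 0.422, where 0.0103% of all probe sets were called). At an unadjusted p under 0.05 there were 3 of 22, Hoxb7, Hoxb8 and Hoxd3, all lower in older lesions, where 9.6% of all probe sets passed in either direction, 4.36% higher and 5.24% lower. Hoxb8 stood at 5.21, 5.66 and 5.56 in the 3 older lesions and at 6.05, 5.87, 5.88 and 5.84 in the 4 younger ones, without overlap. The difference was -0.43 (95% CI -0.75 to -0.11, adjusted p = 0.422), and -0.29 without lesion replicate 1. Hoxb7 stood at 5.73, 6.44 and 6.25 in older and 6.58, 6.45, 6.73 and 6.51 in younger lesions, also without overlap (-0.43, 95% CI -0.79 to -0.07, adjusted p = 0.460). Leaving out lesion replicate 1 gave -0.22. Of all probe sets, 4.55% had every older lesion below every younger one and 3.04% every one above.

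In the other direction Hoxc9 was higher in every older lesion, at 6.65, 4.18 and 4.11 against at most 4.09 in the younger, with a difference of 0.90 (95% CI -0.23 to 2.04) that was 0.07 without lesion replicate 1. The 4 younger lesions and lesion replicate 3 were below background for Hoxc9, so their order carries no information. Hoxc4 stood at 5.70, 4.84 and 4.72 in older and 4.66, 4.81, 4.67 and 4.82 in younger lesions, and older minus younger came to 0.35 (95% CI -0.16 to 0.86). Leaving out lesion replicate 1 gave 0.04. Hoxa5 stood at 4.14, 4.48 and 4.88 in older and 4.39, 3.66, 4.13 and 4.47 in younger lesions (difference 0.34, 95% CI -0.31 to 0.98). Its groups overlapped, and the difference was 0.15 without lesion replicate 3, 0.17 without replicate 5 and 0.52 without replicate 1. In lesion replicate 5 Hoxa5 was below background (3.66 against 4.24). Hoxd4, at 4.67, 4.25 and 4.43 in older and 5.40, 4.67, 4.37 and 4.70 in younger lesions, differed by -0.34 (95% CI -0.82 to 0.15), and leaving out lesion replicate 4 gave -0.13. The median difference was -0.10 over the 22 genes and -0.02 over all probe sets. Over the same comparison the cortex markers had a median difference of -0.65, with all 8 lower in older lesions, and the chromaffin markers one of 0.54, with 7 of 8 higher. The adipocyte markers had a median difference of -0.51, with 8 of 9 lower. Their part in the Hox differences with age was not tested.

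In normal glands the 24-month animals had Hoxb9 levels of 7.26 and 6.39 and the 12-month animals 7.44 and 8.08 (difference -0.94, 95% CI -2.10 to 0.21). Hoxc5 stood at 3.62 and 3.58 in the older and 3.86 and 3.91 in the younger glands, and Hoxd10 at 3.72 and 3.70 against 3.82 and 3.74, both genes under background there. Hoxb9, Hoxc5 and Hoxd10 were thus lower in both older glands, where 13.1% of probe sets were, and limma called 0 Hox genes (0 at an unadjusted p under 0.05, where 2.87% of probe sets passed). The interaction of age class with group gave 0 calls among Hox genes (0 at an unadjusted p under 0.05, where 2.83% of probe sets passed). Males and females, with group in the model, gave 0 calls (0 at an unadjusted p under 0.05, against 3.95%). Its largest differences were Hoxc9 (-0.60, 95% CI -1.50 to 0.31) and Hoxb9 (-0.35, 95% CI -1.08 to 0.39), both male minus female. Hoxc9 came to -0.07 without lesion replicate 1, and Hoxb9 to -0.08 without lesion replicate 4.

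Because the cortex and chromaffin markers spanned the arrays, Hox levels were also related to their balance, the mean of the cortex markers minus that of the chromaffin markers. This comparison was added after the data were seen. The balance ran from -1.78 in lesion replicate 1 to 1.33 in lesion replicate 4, and over the normal glands from -0.40 to 0.52. With group in the model, limma called 2 of 22 Hox genes, 1 higher and 1 lower, where 7.04% of all probe sets were called, 2.72% higher and 4.32% lower. At an unadjusted p under 0.05 there were 5 of 22, against 20.2%. Hoxb8 was higher where the cortex markers prevailed, by 0.27 per log2 unit of the balance (SE 0.06, adjusted p = 0.0214). Hoxc9 had a slope of -0.85 (SE 0.14, adjusted p = 0.00400). Next were Hoxb7 (0.25, adjusted p = 0.0539) and Hoxc4 (-0.31, adjusted p = 0.0679). All 7 HoxB slopes were above 0 and 3 of 4 HoxC slopes below 0, where 17027 of 29214 probe sets were above 0.

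Without lesion replicate 1 limma called 0 Hox genes for this relation. The slope of Hoxb8 was 0.29 (adjusted p = 0.256), close to its value on all arrays. The slopes of Hoxc9 (-0.19), Hoxb7 (0.04) and Hoxc4 (-0.04) shrank, and those of Hoxa7 and Hoxc5 changed sign to -0.14 and 0.26. Those of Hoxd4 (0.59, adjusted p = 0.0779) and Hoxb9 (0.86, adjusted p = 0.256) were larger than on all arrays, at 0.15 and 0.14. Without lesion replicate 4 Hoxc9 alone was called (slope -0.999, adjusted p = 0.00361), Hoxb8 had a slope of 0.26 (adjusted p = 0.0640), and the slopes of Hoxb9 and Hoxd4 were below 0.

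**Figure D5:**
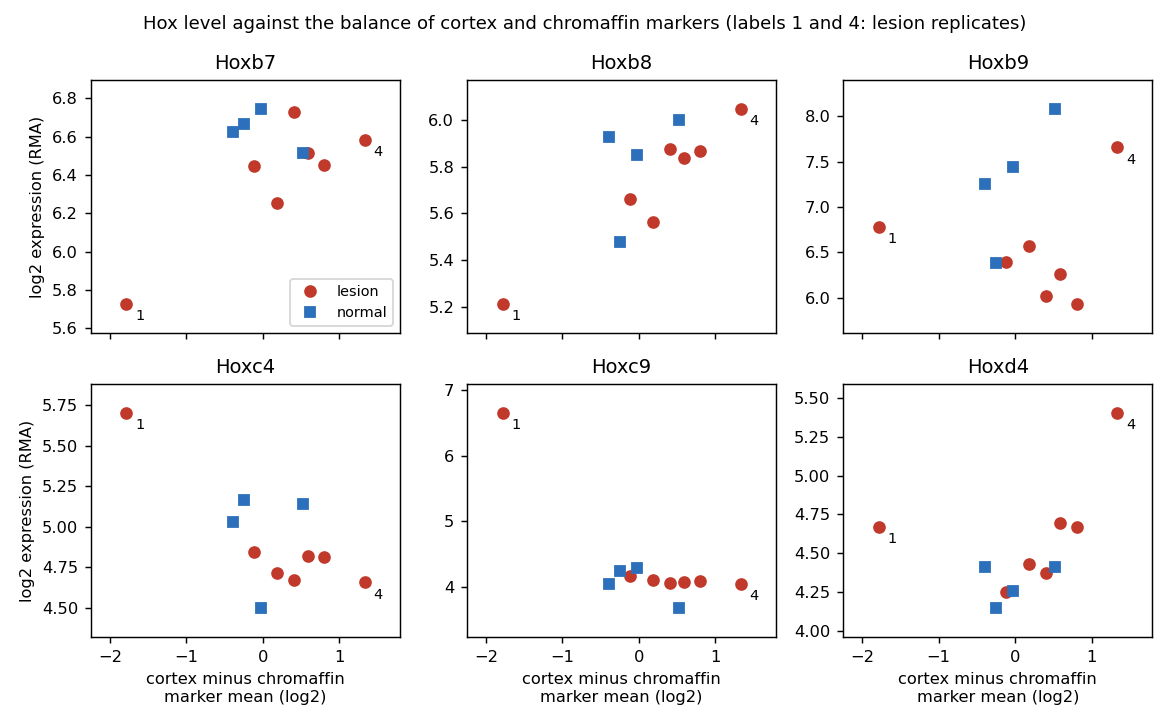
Log2 level of 6 Hox genes against the balance of cortex and chromaffin markers (cortex mean minus chromaffin mean, log2) on 11 arrays, lesions as circles and normal glands as squares, with lesion replicates 1 and 4 numbered. Lesion replicate 1 lies at -1.78 with the highest Hoxc9, and without it the slope of Hoxc9 was -0.19 and that of Hoxb8 0.29, neither called.

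The partners and regulators of Hox genes were measured on the same arrays. Of 9 TALE cofactors, 7 were measured, and none was called in lesions against normal glands or with age. At an unadjusted p under 0.05, 2 of 7 were lower in older than in younger lesions, where 5.24% of all probe sets were. They were Pbx4 (-0.92, 95% CI -1.71 to -0.12) and Pknox1 (-0.45, 95% CI -0.81 to -0.10). Pbx4 stood at 4.826 in lesion replicate 1, 6.471 and 6.155 in the other older lesions and 6.258 to 6.916 in the younger. Pknox1 was below background in lesion replicate 3 (3.987 against 4.381). The largest difference of a TALE cofactor between lesions and normal glands was that of Pbx4 (0.63, 95% CI -0.13 to 1.39). Pbx4 was higher where cortex markers prevailed (slope 0.60, SE 0.14, adjusted p = 0.0230), but without lesion replicate 1, its lowest array at 4.83, the slope was 0.19 (adjusted p = 0.751). Meis2 had a slope of 0.46 (adjusted p = 0.0563), or -0.06 without that array. None of 5 ParaHox and Evx genes, which lie beside or mirror the Hox clusters, was called in any of the 6 comparisons.

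Among 7 measured trithorax-side genes, which keep Hox genes active, and 13 Polycomb-side genes, which keep them silent, 0 were called in any comparison. Between lesions and normal glands the Polycomb subunits Bmi1 (0.36, 95% CI 0.03 to 0.69) and Rnf2 (-0.27, 95% CI -0.51 to -0.03) passed an unadjusted p under 0.05 in opposite directions, 2 of 13 where 7.71% of all probe sets passed. Men1, whose product works in a trithorax-type complex and whose loss causes endocrine tumours in people, passed the same unadjusted threshold between older and younger lesions (-0.29, 95% CI -0.57 to -0.02, adjusted p = 0.492). So did the Polycomb gene Cbx8, lower in every older lesion (-0.49, 95% CI -0.94 to -0.03, adjusted p = 0.491). These were 1 of 7 and 1 of 13 genes, where 9.6% of all probe sets passed. Of 13 measured retinoic acid genes, a pathway that switches on 3′ Hox genes in the embryo, none was called between lesions and normal glands. With age in lesions none was called either. At an unadjusted p under 0.05, 1 was higher and 4 were lower in older lesions, where 4.36% and 5.24% of all probe sets were. The largest differences were those of Crabp1 (1.26, 95% CI 0.15 to 2.38), Aldh1a3 (-0.50) and Rxrb (-0.49). The retinoic acid binding protein gene Crabp1 followed the balance of cortex and chromaffin markers with a slope of -0.96 (SE 0.14, adjusted p = 0.00282). Crabp1 stood at 7.83 in lesion replicate 1 and at 4.42 to 5.96 on the other arrays. That array was highest for 3 of the 13 retinoic acid genes and lowest for 2. Of all probe sets, 13.2% had it highest and 16.5% lowest. Without lesion replicate 1 the slope of Crabp1 was -0.63 (adjusted p = 0.268).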

How the data were processed

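Per the submitters' processing notes, the authors computed the deposited log2 values by RMA in Affymetrix Expression Console 1.3.0.187; no source used here gives the summary level of the probe sets or the genome build. RNA was amplified and labelled per the labels' protocols with a whole-transcriptome kit. The values were used as deposited, without further normalization. Gene names came from the platform annotation, which lists 15633 of the 29214 probe sets, 15310 of them with 1 symbol; all 22 Hox genes matched the RefSeq GRCr8 gene table. For a gene with several probe sets the one with the highest mean was to stand for it.

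Tests used limma 3.58.1 in R 4.3.3 (lmFit, eBayes, two-sided) over all probe sets and all 11 arrays, with Benjamini-Hochberg adjustment and calls at an adjusted p under 0.05. Lesions and normal glands were compared without covariates, ages in a model of group by age class (21 months or more, 13 months or less), sexes with group. The slopes on marker balance are an addition made once results were known. The scripts were tested on simulated data. The members and gene lists were chosen with earlier results of these data known. Every Hox gene was accounted for, with values in each sample for genes called in any comparison, for the 3 per direction with the largest difference between lesions and normal glands and between older and younger lesions, and for those whose groups did not overlap. Of each other list, the members called and at most 3 with the largest difference per comparison could be named. Samples are biological replicates per the labels, and their number limits the precision. The replicate numbers did not meet the criterion for pairing. Alternatives covered normalization, a dim filter, eBayes settings, array weights, covariates, age classes, the background threshold and each array left out.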

Additional observations from a re-analysis of the deposited data

Results flagged for a closer look

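In 8 of 44 checks, each of 1 gene in 1 group, a single array lay apart from the others of its group by Dixon's criterion, which chance meets in about 1 in 20 groups. Lesion replicate 1 lay above the other lesions for Hoxc9 (6.65 against 4.05 to 4.18) and Hoxc4 (5.70 against 4.66 to 4.84). Lesion replicate 4 lay above them for Hoxd4 (5.40 against 4.25 to 4.70) and Hoxb4 (6.95 against 6.50 to 6.60). Lesion replicate 5 lay above them for Hoxb13 (3.70 against 3.25 to 3.44), a gene below background on every array. Among normal glands, replicate 1 lay above for Hoxb2 (4.28 against 4.16 to 4.18) and Hoxd9 (4.94 against 4.85), and replicate 3 below for Hoxa11 (3.57 against 3.79 to 3.81), which is also below background throughout. For Hoxd9 the other normal glands shared 1 value, 4.852, so a gap of any size met the criterion.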

How the results depend on the processing

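No Hox gene was called in the 5 planned comparisons under any alternative run (21 for lesions against normal glands, with a lowest adjusted p of 0.333 to 0.985, 17 for age in lesions, 16 for each of the others). Of 447 values of single genes in the first of these, 39 changed sign, all of uncalled differences. With the replicate number as a block, 0 Hox genes were called. Of all probe sets 3 were, against 19 without the block. The numbers are not shown to pair the samples: the correlations of same-numbered deviations were 0.182, 0.150, 0.073 and 0.209. Among lesion replicates 1 to 4, each normal gland correlated best with its own number, and lesion replicates 5 to 7 were not compared. The balance of cortex and chromaffin markers also rose from replicate 1 to replicate 4 in both groups. Its part in these correlations was not tested. For lesions against normal glands the 19 calls over all probe sets became 30 with the dim filter, which kept 7 Hox genes, 31 with array weights, 0 at 21 months or more, 5 at 13 months or less, 5 without normal replicate 3 and 11 without lesion replicate 7. With age in lesions the 3 calls became 1 to 39. For the slopes on marker balance, the 2 Hox genes called became 4 after quantile normalization, 0 with array weights, and 0 to 4 with 1 array left out; the cause was not tested. Genes above background on all arrays went from 11 to 5 with the 99th percentile and 6 with the array median, as stricter thresholds must. Each gene had 1 probe set, so averaging probe sets changed nothing and was not run. Values near background limit Hoxa5, Hoxb2, Hoxc5, Hoxc9, Hoxd3, Hoxd4 and the 5 genes below it.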
